A study of Mus musculus with 18 samples.

Results

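The prelimbic part of the medial prefrontal cortex (mPFC) of mice in a formalin pain model was compared with that of mice in a complete Freund's adjuvant (CFA) pain model, gene by gene. Members of the comparison were the mPFC libraries whose titles carry the name of either agent, which gave 3 formalin and 3 CFA libraries, 6 of the 18 libraries of the series. All mice were male wild-type C57BL/6 mice, described as 6 to 8 weeks old. The formalin mice had received 10 µL of 1% formalin and were sacrificed after 24 h, whereas the CFA mice had received 10 µL of 50% CFA and were sacrificed after 72 h. The agent and the time since injection thus changed together and cannot be told apart. The 3 mPFC control libraries came from mice that received neither agent, and their levels are given beside the compared ones. The other 9 libraries came from another region, the bed nucleus of stria terminalis (BNST), of mice treated in the same ways. 3 brains of each group were dissected, and both regions were taken from each brain, so the BNST values come from the same animals.

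The prelimbic cortex is a frontal area whose projecting excitatory neurons take part in the control of fear, anxiety and pain-related behavior. Formalin is an irritant that produces a short-lived pain, and CFA is an oil emulsion of killed mycobacteria that produces a lasting inflammation. Injury and inflammation raise circulating glucocorticoid hormones, which enter the brain and bind the glucocorticoid receptor. That receptor is a transcription factor, and genes such as Fkbp5, Tsc22d3 and Sgk1 are textbook targets of it in neurons and glia. A bulk library mixes all cell types of the tissue, so fewer cells of a type and less RNA per cell cannot be told apart.

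Levels are CPM, counts scaled to the size of each library after trimmed-mean (TMM) correction, and differences are log2 fold changes of formalin minus CFA from the quasi-likelihood model of edgeR, in which a positive value means a higher level after formalin. A gene was called where the p adjusted by Benjamini and Hochberg was under 0.05 and the fold change exceeded 0.5 on the log2 scale in either direction. The 6 libraries held 15684723 to 23408503 counts. Markers of cortical excitatory neurons such as Slc17a7 and Camk2a were abundant in every library, with a summed level of 6999 to 7434 CPM after formalin and 6546 to 7155 CPM after CFA. The 9 thalamic and habenular markers summed to 103 to 119 CPM after formalin and to 103 to 106 CPM after CFA, most of it from Rora, which the cortex also expresses, while the transcription factors Gbx2 and Pou4f1 were under 0.1 CPM in both group means. Formalin replicate 1 stood apart in its choroid plexus markers, whose sum was at most 29.1 CPM after formalin and at most 8.50 CPM after CFA, with Ttr at 17.7, 0.344 and 2.46 CPM in the 3 formalin libraries. None of the 10 choroid plexus markers was called by edgeR, DESeq2 or limma-voom, and 0 had an unadjusted p under 0.05 in edgeR.

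Of 18994 genes tested, 177 were called, which is 0.932% of them. After formalin 71 genes were higher (0.374%) and 106 were lower (0.558%) than after CFA. An unadjusted p under 0.05 was found for 2927 genes in edgeR. Counts of list members below, called or with such a p, stand beside these numbers for all genes. Most differences were small. On the log2 scale, 32 higher and 34 lower genes passed 1, and 8 and 10 passed 2. Protein-coding genes made up 58 of the higher and 91 of the lower genes. The median log2 fold change of all genes tested was −0.00145. Distances between libraries, as the root mean square of log2 differences over all genes tested, ran from 0.427 to 0.469 for the 6 pairs within a group and from 0.476 to 0.519 for the 9 pairs between the groups, so the groups did not overlap by this measure but lay close together.

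The count fell when any 1 of the 6 libraries was left out. Without formalin replicate 1, 2 or 3 it was 64, 119 or 50, and without CFA replicate 1, 2 or 3 it was 55, 84 or 75. All of the called genes kept their direction in these 6 fits, 38 of them were called in each of the 6, and 58 were called in none. Below, a call is said to hold without any library where it was made in all 6 fits. Each of these fits also has a smaller group, so a lost call can follow from that as well as from the library left out. These were not told apart. Calls from edgeR are those of the fit of all 18 libraries unless another set is named. In the 9 mPFC libraries alone and the 6 compared libraries alone, edgeR called 552 and 597 genes. Genes not called in the fit of all 18 libraries can thus be called in those fits.

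**Figure D1:**
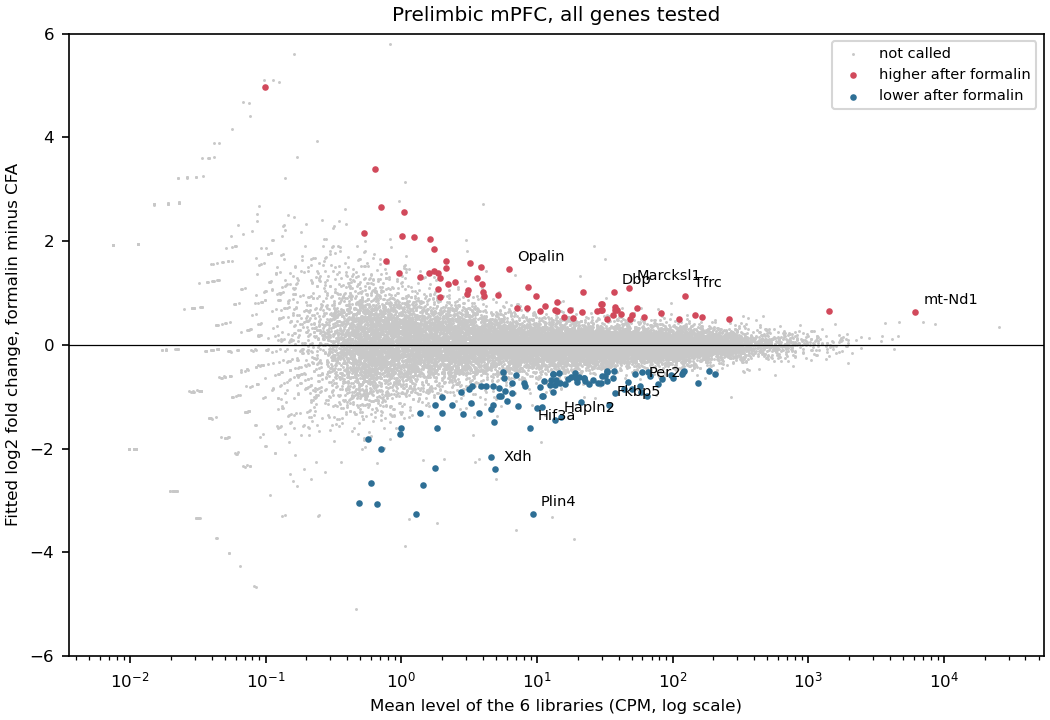
Each point is 1 gene tested, with the mean level of the 6 libraries on a log axis in CPM and the fitted log2 fold change of formalin minus CFA on the vertical axis. The 71 genes called higher and the 106 called lower after formalin are colored, and 62 genes at 0 in all 6 libraries are not drawn. Called genes above 100 CPM lay within about 1 of 0, whereas the largest fitted values belong to genes under 1 CPM.

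Among called genes whose higher group averaged at least 5 CPM without overlap between the groups, the largest change was a fall of Plin4, a perilipin that coats lipid droplets (chr17:56100591-56109803, GRCm38). Plin4 was at 1.58, 1.99 and 1.71 CPM in the formalin libraries and at 15.2, 18.3 and 16.9 CPM in the CFA libraries. Every CFA library was above every formalin library, and the control mean of 1.91 ± 0.223 CPM (SD, n = 3) was beside the formalin values. Its log2 fold change was −3.26 (SE 0.40, adjusted p = 0.00117 from edgeR), and the call held without any library.

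Xdh, the xanthine dehydrogenase that makes uric acid, was at 2.57, 1.10 and 0.890 CPM after formalin and at 6.09, 11.5 and 7.53 CPM after CFA (log2 fold change −2.40, SE 0.39, adjusted p = 0.00535 from edgeR). Both groups varied widely among their own libraries, yet they did not overlap. Hif3a, an inhibitory member of the hypoxia-inducible factor family, was at 3.42, 4.81 and 4.93 CPM after formalin and at 10.9, 16.2 and 12.8 CPM after CFA (−1.61, SE 0.23, adjusted p = 0.00225 from edgeR). Acer2, a ceramidase of the Golgi, fell from 6.03, 6.42 and 8.95 CPM after CFA to 2.79, 2.61 and 2.19 CPM after formalin (−1.48, SE 0.23, adjusted p = 0.00376 from edgeR). Calls of all 3 of these genes held without any library.

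Some genes of the extracellular matrix were also among the 12 largest falls, but matrix genes did not fall as a group. In a list of 30 matrix and integrin genes, which holds none of Hapln2, Col5a3 and Adamts2, edgeR called 0 lower and 1 higher. DESeq2 called 2 lower and 3 higher. In the 9 mPFC libraries alone, and likewise in the 6 compared libraries alone, edgeR called 2 lower and 4 higher. An unadjusted p under 0.05 was found in edgeR for 3 lower and 7 higher members, beside 2927 of all 18994 genes. Of those 30 genes 17 were above 0, and their median was 0.04. Hapln2, a link protein of the matrix at nodes of Ranvier, was at 6.49, 7.49 and 8.08 CPM after formalin and at 23.3, 15.7 and 21.1 CPM after CFA (−1.45, SE 0.21, adjusted p = 0.0029 from edgeR). Col5a3, a collagen chain, was at 2.84, 3.30 and 2.05 CPM after formalin and at 6.50, 6.42 and 6.57 CPM after CFA (−1.25, SE 0.20, adjusted p = 0.00374 from edgeR). Adamts2, which trims procollagen, had a log2 fold change of −1.40 (adjusted p = 0.0237 from edgeR) that was called without CFA replicate 1 but not without any other of the 6 libraries (adjusted p up to 0.114). The control means of Hapln2, Col5a3 and Adamts2, at 13.5, 4.41 and 13.2 CPM, lay between those of the pain models. The remaining genes of the 12 were Sult1a1, described below, Alox12b, a skin lipoxygenase (−1.19), and the predicted genes Gm19439 (−2.16), Gm20219 (−1.31) and Gm40518 (−1.21). Alox12b lost its call without formalin replicate 3 (adjusted p = 0.0516) and Gm40518 without any 1 of the 6 libraries (adjusted p up to 0.155), all from edgeR.

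Among the 12 largest rises, the firmest was Marcksl1, an actin-binding substrate of protein kinase C (chr4:129513581-129515985). Marcksl1 was at 59.1, 57.0 and 77.3 CPM after formalin and at 30.7, 33.1 and 27.0 CPM after CFA, and the call held without any library (adjusted p up to 0.00575 from edgeR). Its paralog Marcks was at a log2 fold change of 0.32 and was not called (adjusted p = 0.0516 from edgeR). Epha3, an ephrin receptor of axon guidance, was at 9.91, 14.3 and 10.9 CPM after formalin and at 6.50, 4.10 and 5.47 CPM after CFA (1.12, SE 0.23, adjusted p = 0.0193 from edgeR), and Pla2g4e, a cytosolic phospholipase, had a log2 fold change of 0.95 (adjusted p = 0.023 from edgeR). The calls of Epha3 and Pla2g4e were lost without 4 and 5 of the 6 libraries. The control mean of Epha3 (8.69 CPM) lay between the groups, that of Marcksl1 (57.8 CPM) lay within the formalin range, and that of Pla2g4e (15.8 CPM) lay above its 11.7 to 14.3 CPM after formalin. Among the others were Opalin, Dbp, Itm2a, Itgam and Tfrc, described below, Fam198b (1.17), a Golgi kinase-like protein, and the predicted gene Gm12371, at 5.90, 5.50 and 5.89 CPM after formalin and 2.01, 2.31 and 1.80 CPM after CFA. The call of Gm12371 held without any library, and that of Fam198b was made without formalin replicate 2 only.

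**Figure D2:**
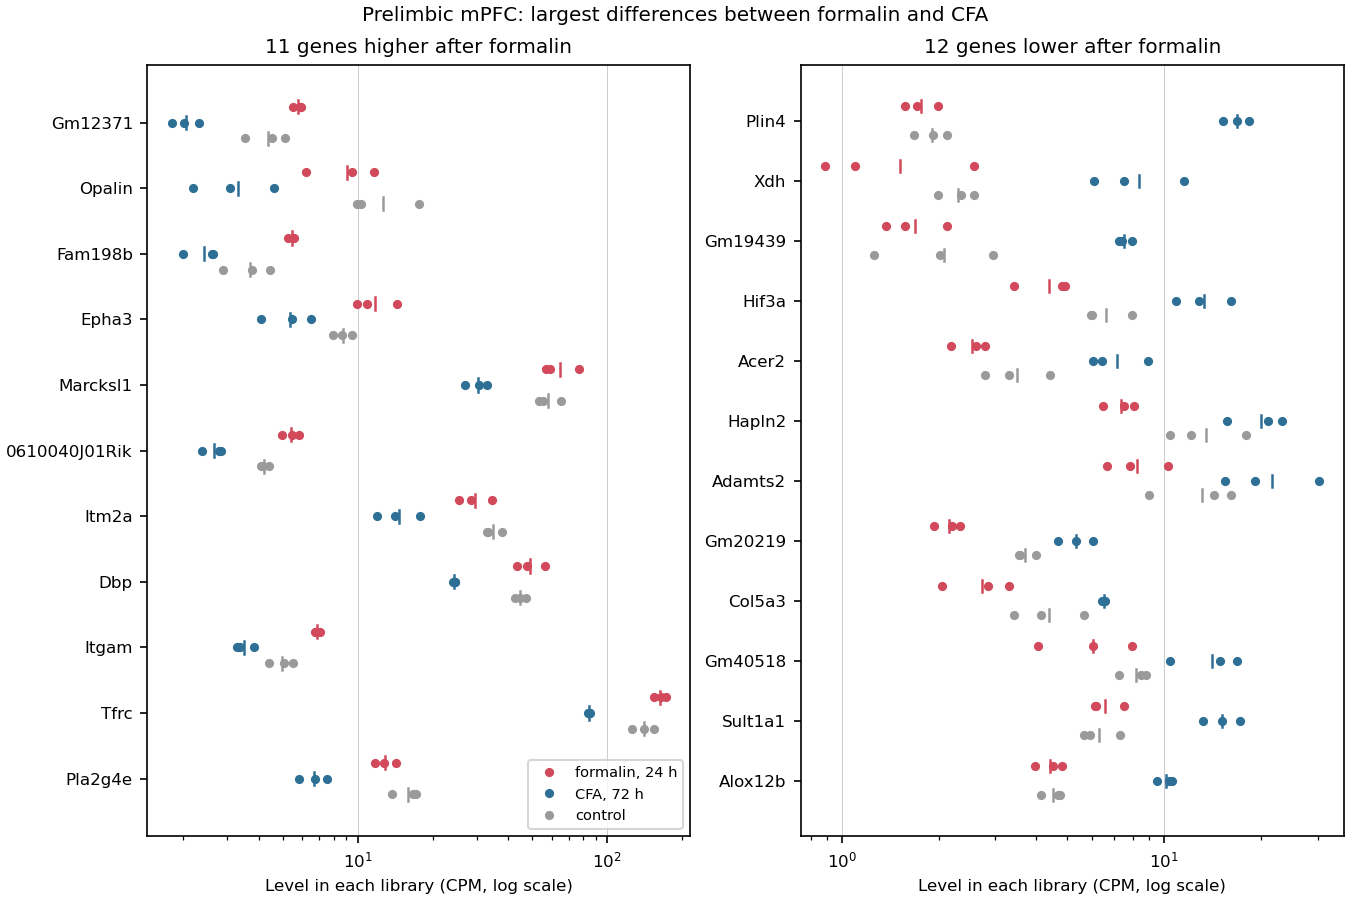
CPM on a log axis in each of the 3 formalin, 3 CFA and 3 control mPFC libraries for 23 called genes of at least 5 CPM, 11 of those with the largest rise and the 12 with the largest fall, with a bar at each group mean. Formalin and CFA libraries do not overlap for any of the 23 genes, because lack of overlap was part of the rule that chose them. Plin4, at 15.2 to 18.3 CPM after CFA, is the widest gap.

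Genes that respond to glucocorticoids were called in 1 direction. Of 23 tested members of that list, 7 were called lower after formalin and 0 higher, against 0.558% of all genes called lower, and the median log2 fold change of the list was −0.52 against −0.00145 for all genes. Besides Plin4 and Hif3a, these were Sult1a1, Fkbp5, Tsc22d3, Map3k6 and Cdkn1a. A total of 13 members had an unadjusted p under 0.05, beside 2927 of all 18994 genes. All 13 were lower after formalin, and DESeq2 called 9 members. Leaving out 1 of the 6 libraries left 4 or 5 calls. The list was chosen with earlier results of these data known, so its count is a description.

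Fkbp5, a co-chaperone that lowers the hormone affinity of the glucocorticoid receptor (chr17:28399094-28517527), was at 22.2, 19.3 and 21.3 CPM after formalin and at 43.7, 53.6 and 42.6 CPM after CFA. Its log2 fold change was −1.16 (SE 0.13, adjusted p = 0.000287 from edgeR), and the control mean was 19.0 ± 0.944 CPM (SD, n = 3). Sult1a1, a sulfotransferase, was at 6.17, 7.49 and 6.09 CPM after formalin and at 13.2, 15.2 and 17.2 CPM after CFA (−1.21, SE 0.15, adjusted p = 0.000741 from edgeR). Both calls held without any library, and in both genes the formalin and the control levels were close together while the CFA levels stood above.

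Tsc22d3, also called GILZ, an anti-inflammatory leucine zipper protein, was at 39.8, 40.1 and 43.3 CPM after formalin and at 74.0, 83.8 and 73.1 CPM after CFA (−0.91, SE 0.18, adjusted p = 0.0185 from edgeR). Map3k6, a stress-activated kinase, fell, with a log2 fold change of −0.83 (adjusted p = 0.0341 from edgeR). Cdkn1a, the cell cycle inhibitor p21, was at 25.1, 27.8 and 23 CPM after formalin and at 43.1, 38.4 and 41.4 CPM after CFA (−0.70, SE 0.17, adjusted p = 0.0465 from edgeR). In all 3 genes the groups were separate, but Tsc22d3 and Cdkn1a lost their calls without any 1 of the 6 libraries (adjusted p up to 0.0829 and 0.187) and Map3k6 without 5 of them (up to 0.161). Sgk1, the serum- and glucocorticoid-regulated kinase, was at 57.8, 42.4 and 53.9 CPM after formalin and at 101, 97.3 and 103 CPM after CFA, and just missed the threshold (−0.96, SE 0.23, adjusted p = 0.0509 from edgeR), whereas DESeq2 and limma-voom called it.

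Of the 23 tested members of the list, 22 had a negative log2 fold change. EdgeR called 11 lower in the mPFC libraries alone and 11 lower in the compared libraries alone. Some members that were not called were level. Klf9, a transcription factor, was at 272, 275 and 277 CPM after formalin and at 294, 298 and 248 CPM after CFA (−0.03, SE 0.10), and Per1 had a log2 fold change of −0.11 (SE 0.09). The receptors themselves were not called either. Nr3c1, the glucocorticoid receptor, was at 136, 146 and 148 CPM after formalin and at 127, 118 and 119 CPM after CFA (0.24, SE 0.08, adjusted p = 0.151 from edgeR). Nr3c2, the mineralocorticoid receptor, had a log2 fold change of −0.05 (SE 0.33) and Hsd11b1, which regenerates active hormone inside cells, −0.01 (SE 0.30). Of 12 tested genes for steroid receptors and hormone handling, 0 were called by edgeR, DESeq2 or limma-voom, and 3 had an unadjusted p under 0.05 in edgeR.

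**Figure D3:**
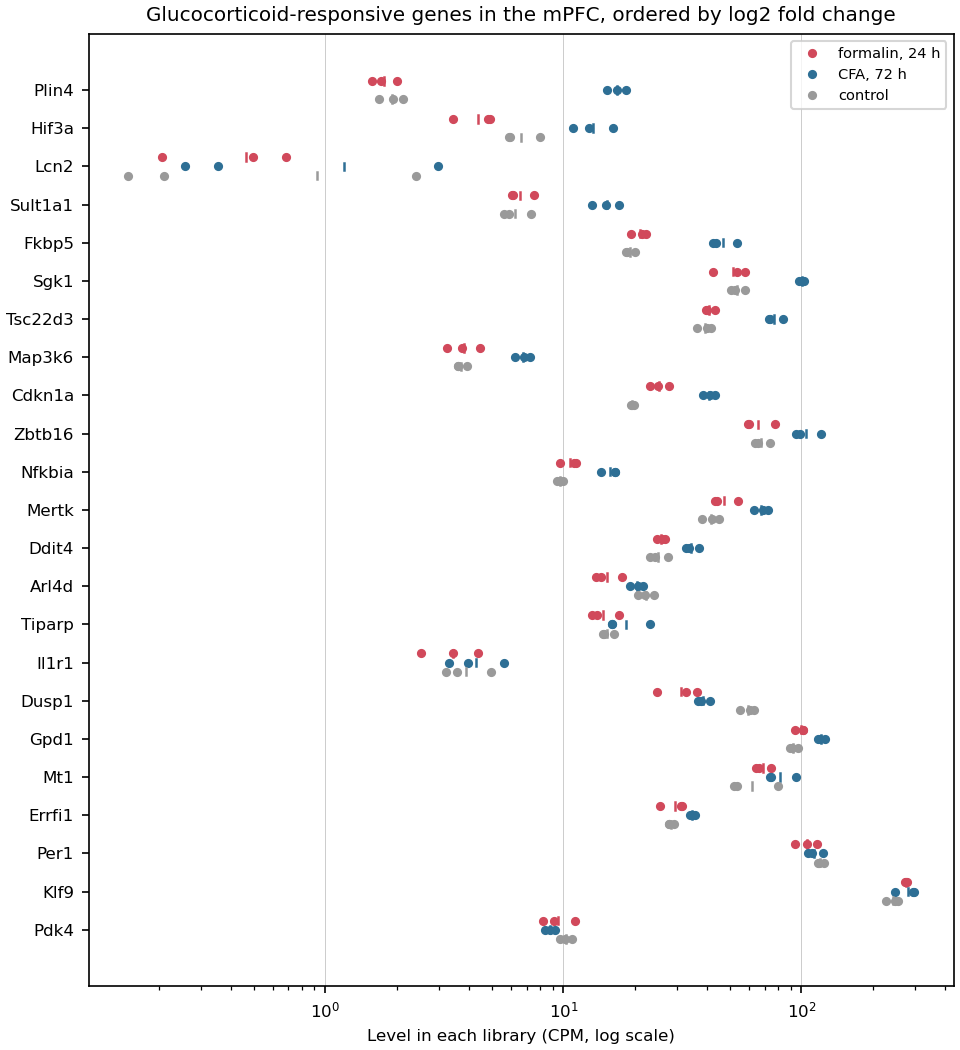
CPM on a log axis for the 23 tested glucocorticoid-responsive genes in the formalin, CFA and control mPFC libraries, with a bar at each group mean, ordered by the log2 fold change of formalin minus CFA. CFA libraries lie to the right of both other groups for Plin4, Sult1a1, Fkbp5, Sgk1, Tsc22d3, Map3k6 and Cdkn1a, and the groups mix for Klf9 and Per1.

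The promoters of Sgk1 and Fkbp5 are shown because these genes are models of direct control by the glucocorticoid receptor. Each is the 250 bases upstream of a RefSeq gene start on GRCm38.p6, 5′ to 3′ on the strand of the gene, at chr10:21993640-21993889 (plus strand) and chr17:28486150-28486399 (minus strand). Neither window holds an annotated exon. Capitals mark matches on either strand to the palindromic glucocorticoid response element (AGAACA and TGTTC with any 3 bases between them), whose matches on both strands overlap and join into 1 run, and to the E-box CACGTG, which clock proteins among others bind.
Sgk1: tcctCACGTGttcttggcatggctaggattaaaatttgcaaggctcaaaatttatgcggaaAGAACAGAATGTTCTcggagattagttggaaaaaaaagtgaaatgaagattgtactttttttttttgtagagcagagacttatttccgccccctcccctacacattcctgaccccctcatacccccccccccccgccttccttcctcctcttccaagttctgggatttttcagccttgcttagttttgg
Fkbp5: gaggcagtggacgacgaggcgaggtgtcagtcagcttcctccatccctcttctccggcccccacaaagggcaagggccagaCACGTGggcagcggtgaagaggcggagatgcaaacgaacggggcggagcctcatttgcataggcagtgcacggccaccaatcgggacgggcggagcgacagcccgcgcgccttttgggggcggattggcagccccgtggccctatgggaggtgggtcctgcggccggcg

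The Sgk1 window is 1 of 6 that RefSeq gives for this gene, and the only one of them with the element, which is rare in such windows. It was in 9 of 27025 RefSeq genes with a promoter sequence (0.0333%) and in 2 of the 12832 genes tested with one (0.0156%). Of the 21 glucocorticoid-responsive genes with a sequence 1 had it, and of the 74 genes lower after formalin with a sequence 0 had it. The E-box was in 6 of these 74 (8.11%) and in 7 of the 45 genes higher after formalin with a sequence (15.6%), against 9.21% of 12832 genes tested with one. The D-box TTATGNAA was in 4 of the 45 higher and 1 of the 74 lower genes, against 2.46% of the genes tested. The heat shock element (GAA, TTC and GAA, each 2 bases apart) was in 1 and 0 of them, against 0.46%. A match describes letters only, and no match says nothing about elements outside the window.

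Lipid and insulin genes fell where they were called. Of 25 genes of lipid droplets, fatty acids and ketones, 3 were called lower (Plin4, Xdh and Acot1), 0 were called higher, against 0.558% and 0.374% of all genes, and the median was −0.18. Acot1, a thioesterase that releases fatty acids from coenzyme A and shares much of its sequence with Acot2, was at 7.70, 6.87 and 8.28 CPM after formalin and at 12.8, 11.5 and 16.2 CPM after CFA (−0.82, SE 0.20, adjusted p = 0.0473 from edgeR), a call lost without any 1 of the 6 libraries. Acot2 was at −0.46 (adjusted p = 0.281 from edgeR).

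Of 24 genes of insulin and FoxO signalling, 3 were called lower and 0 higher, against 0.558% and 0.374% of all genes, with a median of −0.08. Irs2, an adaptor of the insulin receptor, was at 81.1, 72.0 and 82.1 CPM after formalin and at 114, 121 and 115 CPM after CFA (−0.57, SE 0.09, adjusted p = 0.00291 from edgeR). The pseudokinases Trib1 and Trib2 had log2 fold changes of −0.60 (adjusted p = 0.00457 from edgeR) and −0.59 (adjusted p = 0.0196 from edgeR). Calls of Irs2 and Trib1 held without any library, and that of Trib2 was lost without 4 of the 6 (adjusted p up to 0.109). The control levels differed between these genes. Irs2 was at 81.7 and Trib2 at 46.1 CPM in controls, at or below the formalin levels, whereas Trib1 was at 41.7 CPM in controls, near the CFA mean and above the 23.4 to 24.9 CPM after formalin. Insr, the insulin receptor, did not move (−0.03, SE 0.08), and Igf1r was at −0.37, under the fold minimum.

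Clock genes changed in both directions. The molecular clock is a loop in which Clock and Arntl drive the Per, Cry and Nr1d genes and Dbp, while Nfil3 opposes Dbp at D-box sites. Of 19 tested genes, Dbp was called higher and Per2 and Nfil3 lower, against 0.374% and 0.558% of all genes, with a median of 0.01. Dbp was at 47.7, 43.4 and 56.1 CPM after formalin and at 24.5, 24.5 and 24.1 CPM after CFA (1.01, SE 0.13, adjusted p = 0.000926 from edgeR). Per2 was at 44.1, 36.8 and 45.6 CPM after formalin and at 76.1, 75.5 and 67.0 CPM after CFA (−0.79, SE 0.09, adjusted p = 0.000287 from edgeR).

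Calls of Dbp and Per2 held without any library, and in both the control means, 44.9 and 44.1 CPM, were within the formalin range. Dbp shares 18% of its exon bases with Sphk2 on the opposite strand, and the counting setting for strand is not given in the sources used here. Nfil3 was at 8.42, 9.90 and 7.67 CPM after formalin and at 16.7, 12.6 and 12.9 CPM after CFA (−0.70, SE 0.16, adjusted p = 0.0341 from edgeR), but was called without formalin replicate 2 only. The repressor Nr1d1 was at 117, 106 and 112 CPM after formalin and at 77.8, 87.2 and 73.0 CPM after CFA. Its log2 fold change of 0.49 missed the fold minimum (adjusted p = 0.00938 from edgeR), as did the 0.36 of Nr1d2, and Arntl was at −0.25 (adjusted p = 0.138 from edgeR). The hour of the day at which brains were taken is not given in the sources used here, so its part in these values was not tested.

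Both RNA-binding proteins that mild cooling induces were higher after formalin. Cirbp was at 51.7, 54.1 and 45.6 CPM after formalin and at 31.1, 35.1 and 34.6 CPM after CFA (0.59, SE 0.10, adjusted p = 0.00831 from edgeR). Rbm3 was at 71.6, 58.0 and 74.7 CPM after formalin and at 35.2, 40.0 and 49.1 CPM after CFA (0.72, SE 0.16, adjusted p = 0.0282 from edgeR). Controls were at 52.5 and 58.8 CPM, on the side of formalin. The call of Cirbp was lost without CFA replicate 1 (adjusted p = 0.0641 from edgeR). That of Rbm3 was lost without 4 of the 6 libraries (up to 0.137).

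Heat shock and chaperone genes leaned the other way. All 20 tested members had a negative log2 fold change, with a median of −0.38. In the fit of all 18 libraries edgeR called 0, and DESeq2 and limma-voom called 2 and 0. EdgeR called 5 lower in the 9 mPFC libraries alone and 6 lower in the 6 compared libraries alone. A total of 11 members had an unadjusted p under 0.05, beside 2927 of all 18994 genes. Hspa8, the constitutive cytosolic chaperone, was at 1673, 1658 and 1860.0 CPM after formalin and at 2433, 2164 and 2019 CPM after CFA (−0.35, SE 0.10, adjusted p = 0.0705 from edgeR). Hsph1 was at −0.47 (adjusted p = 0.0508) and the inducible Hspa1a at −0.65 (adjusted p = 0.0888), while Hsf1, the factor that drives these genes, was at −0.39, under the fold minimum (adjusted p = 0.0263), all from edgeR. Body temperature is not given in the sources used here, so its part was not tested.

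**Figure D4:**
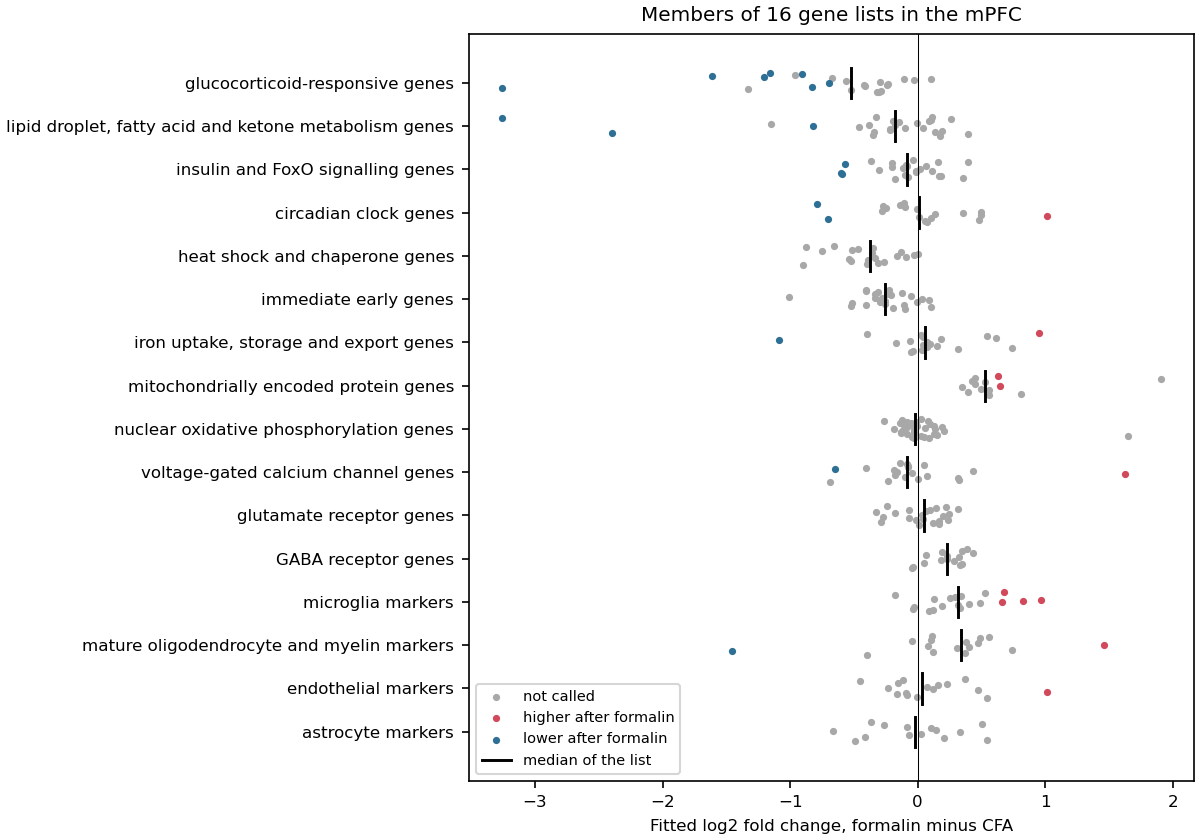
Each point is 1 tested gene of 16 lists, placed by its fitted log2 fold change of formalin minus CFA, with called genes colored and a black bar at the median of the list. The bars of the glucocorticoid-responsive (−0.52) and heat shock genes (−0.38) lie left of 0, and those of the mitochondrially encoded genes (0.53), myelin markers (0.34) and microglia markers (0.32) lie right of it.

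Iron genes gave 1 call in each direction among 20 tested, against 0.374% of all genes called higher and 0.558% lower. Tfrc, the transferrin receptor through which cells take up iron (chr16:32608920-32632794), was at 165, 172 and 154 CPM after formalin and at 84.5, 85.6 and 83.5 CPM after CFA (0.95, SE 0.12, adjusted p = 0.000741 from edgeR). The call held without any library, and the control mean was 139.8 ± 13.9 CPM (SD, n = 3), nearer to formalin. Heph, a ferroxidase of iron export, was at 3.96, 3.37 and 4.17 CPM after formalin and at 8.98, 6.29 and 9.21 CPM after CFA (−1.09, SE 0.24, adjusted p = 0.029 from edgeR), with controls at 3.56 CPM. Its call was made without CFA replicate 2 only. The exporter Slc40a1 was at 0.18 (SE 0.20) and the ferritin chain Fth1, at a mean of 1206 CPM after formalin and 1148 CPM after CFA, at 0.07 (SE 0.13), neither of them called.

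Transcripts of the mitochondrial genome were higher after formalin. All 13 tested protein-coding genes had a positive log2 fold change, with a median of 0.53. Of them mt-Nd1 and mt-Nd6, subunits of complex I, were called, against 0.374% of all genes called higher. DESeq2 called 4 of the 13, and 9 had an unadjusted p under 0.05 in edgeR, beside 2927 of all 18994 genes. mt-Nd1 was at 7134, 7254 and 7936 CPM after formalin and at 4927, 4555 and 4960.0 CPM after CFA (0.63, SE 0.12, adjusted p = 0.0118 from edgeR), and mt-Nd6 had a log2 fold change of 0.65 (adjusted p = 0.0304 from edgeR). mt-Co1, the most abundant, was at 0.35 (adjusted p = 0.123 from edgeR). Together these genes took 5.86% to 6.52% of the counts after formalin, 4.51% to 4.81% after CFA and 3.93% to 5.37% in controls. mt-Nd1 lost its call when formalin replicate 3 or CFA replicate 1 or 2 was left out and mt-Nd6 without any 1 of the 6 libraries (adjusted p up to 0.0779 and 0.135). Of 34 nuclear genes for oxidative phosphorylation, 0 were called by edgeR, DESeq2 or limma-voom, 3 had an unadjusted p under 0.05, and their median was −0.02. The share of mitochondrial reads can also follow the handling of tissue and RNA, and its part was not tested.

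The study itself named Cacna1h, Cav2, Nos1, P2ry12 and Nfkbia from these same samples, so their directions are no independent evidence. Cacna1h, a pore subunit of T-type calcium channels, was at 77.6, 83.8 and 76.1 CPM after formalin and at 104, 134 and 135 CPM after CFA (−0.65, SE 0.11, adjusted p = 0.00831 from edgeR), a call lost without formalin replicate 1 or 3 (adjusted p up to 0.0606). The auxiliary subunit Cacna2d4 was at 3.29, 3.30 and 3.15 CPM after formalin and at 1.18, 0.661 and 1.29 CPM after CFA (1.62, SE 0.31, adjusted p = 0.0119 from edgeR). Limma-voom did not call Cacna2d4, and edgeR lost it when formalin replicate 1 or CFA replicate 1 or 2 was left out (adjusted p up to 0.0686). These were the only calls among 20 voltage-gated calcium channel genes, against 0.374% of all genes called higher and 0.558% lower. The median of the list was −0.08. Cacna2d1, the subunit to which gabapentin binds, was at 0.43 (SE 0.12, adjusted p = 0.0665 from edgeR).

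Cav2, a caveolin of membrane pits, was at 47.0, 45.3 and 45.6 CPM after formalin and at 31.7, 27.5 and 27.4 CPM after CFA (0.67, SE 0.10, adjusted p = 0.00225 from edgeR), and the call held without any library. Controls were at 37.4 ± 3.90 CPM (SD, n = 3), between both. It was the only call among 7 caveola genes, whose median was 0.27. Its partner Cav1 was at 0.38 (SE 0.16, adjusted p = 0.241) and Pacsin2, which bends membranes, at −0.40, under the fold minimum (adjusted p = 0.0263), both from edgeR.

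Of 15 nitric oxide and cyclic GMP genes, 0 were called by edgeR or limma-voom, 1 was by DESeq2, and 4 had an unadjusted p under 0.05. Nos1, the neuronal nitric oxide synthase, was at 72.6, 77.1 and 67.8 CPM after formalin and at 95.2, 109 and 110.5 CPM after CFA. The groups were separate, but Nos1 was not called (−0.53, SE 0.14, adjusted p = 0.0608 from edgeR), whereas DESeq2 and the edgeR fit of the 6 compared libraries alone called it. Gucy1a1, a subunit of the nitric oxide receptor, had the opposite sign at 0.46 (SE 0.06, adjusted p = 0.00117 from edgeR), under the fold minimum. Nfkbia, the inhibitor of NF-kB, was at 11.3, 9.69 and 11.1 CPM after formalin and at 14.4, 16.5 and 16.5 CPM after CFA and was not called by edgeR (−0.56, SE 0.16, adjusted p = 0.085), but it was by DESeq2. The edgeR fits of the 9 mPFC libraries alone and of the 6 compared libraries alone also called Nfkbia.

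Synaptic and activity genes gave few calls. Among glutamate receptors (22 tested), GABA receptors (15), voltage-gated sodium channels (8), neuropeptides and granins (22) and intracellular calcium genes (25), edgeR, DESeq2 and limma-voom each called 0, with 3, 6, 3, 3 and 1 genes at an unadjusted p under 0.05 in edgeR. Of 30 synaptic vesicle genes edgeR and limma-voom called 0, DESeq2 called 1, and 1 had an unadjusted p under 0.05. The GABA receptor genes had the highest median of these, 0.23, with 13 of 15 above 0, and the 6 of 15 at an unadjusted p under 0.05 stand beside 2927 of all 18994 genes.

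Htr1b, a presynaptic serotonin receptor, was the only call among 36 monoamine, acetylcholine and opioid receptors, at 12.2, 15.8 and 11.4 CPM after formalin and 19.7, 23.9 and 18.1 CPM after CFA (−0.65, SE 0.14, adjusted p = 0.0286 from edgeR). Leaving out formalin replicate 1 or 3, or either of CFA replicates 1 and 2, ended this call (adjusted p up to 0.147). Of 25 immediate early genes, which neurons switch on after firing, 22 had a negative log2 fold change (median −0.25). Of the 25, 0 were called by edgeR or limma-voom, 1 was by DESeq2, and 5 had an unadjusted p under 0.05. EdgeR called 2 lower in the 9 mPFC libraries alone and 2 lower in the 6 compared libraries alone. Arc, which acts at active synapses, was at 210.1, 163 and 166 CPM after formalin and at 373, 389 and 321 CPM after CFA, with an adjusted p of 0.0733 from edgeR (−1.01, SE 0.27). DESeq2 called Arc, as did the edgeR fits of the 9 mPFC libraries alone and of the 6 compared libraries alone. Fos (−0.22, SE 0.45) and Egr1 (−0.24, SE 0.20) overlapped between the groups.

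Microglia markers were higher after formalin in 16 of 19 tested genes, with a median of 0.32, and 4 were called, all higher, against 0.374% of all genes. P2ry12, the ADP receptor by which microglial processes sense injury, was at 48.0, 44.8 and 50.4 CPM after formalin and at 28.0, 29.5 and 32.1 CPM after CFA (0.68, SE 0.13, adjusted p = 0.0113 from edgeR). Cd33, a sialic acid receptor, was at 16.6, 18.8 and 18.6 CPM against 8.39, 9.33 and 12.8 CPM (0.82, SE 0.16, adjusted p = 0.0168 from edgeR). Itgam and Gpr34 were called at log2 fold changes of 0.97 and 0.66, and Itgam shares 68.7% of its exon bases with Gm49368 on the same strand.

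None of these 4 calls held without any library, and 0 to 2 of the list were called when 1 of the 6 was left out. Of the 19 genes 11 had an unadjusted p under 0.05 in edgeR, all of them higher after formalin, beside 2927 of all 18994 genes. DESeq2 called 5, all higher. Some other markers of the list were less far apart. Csf1r was at 0.29 (adjusted p = 0.123), Cx3cr1 at 0.34 (adjusted p = 0.0985) and Tmem119 at −0.18 (adjusted p = 0.674), all from edgeR. The summed level of the 19 genes was 587 to 648 CPM after formalin, 494 to 525 CPM after CFA and 484 to 577 CPM in controls. Markers of blood immune cells were nearly absent, since 10 of 12 were under the count filter. Of 28 cytokine, toll-like receptor and NF-kB genes edgeR and limma-voom called 0, DESeq2 called 1, and 5 had an unadjusted p under 0.05. The interferon and antigen presentation list gave Gbp3 as higher (1.29, adjusted p = 0.0252 from edgeR) and Tap1 as lower (−1.01, adjusted p = 0.0282 from edgeR) among 27, and each lay under 4 CPM in all 6 libraries and lost its call without at least 4 of them.

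Oligodendrocyte genes did not move as 1 group. Opalin, a membrane protein of mature oligodendrocytes, was at 9.46, 6.19 and 11.6 CPM after formalin and at 3.07, 2.18 and 4.63 CPM after CFA (1.46, SE 0.34, adjusted p = 0.0418 from edgeR), whereas Hapln2, described above, fell. Opalin was called without formalin replicate 2 only, and not by limma-voom. Among 16 myelin markers 13 had a positive log2 fold change, with a median of 0.34. Mbp, a main myelin protein, overlapped between the groups (0.11, SE 0.20). The summed markers ran from 1941 to 2940 CPM after formalin, from 1761 to 2511 CPM after CFA and from 2750 to 4267 CPM in controls, and this spread within groups was larger than the gap between them. Omg, a myelin and neuronal inhibitor of axon growth that no list held and that was chosen after its values were seen, was higher (0.51, adjusted p = 0.00593 from edgeR), but so near the fold minimum that the call was lost without formalin replicate 3 or CFA replicate 3, with scaling to total counts and with the stricter count filter. The part of white matter in the dissected tissue was not tested.

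Vessel and astrocyte markers gave few calls. Itm2a, a membrane protein of brain endothelium, was at 34.5, 28.3 and 25.5 CPM after formalin and at 11.9, 17.8 and 14.1 CPM after CFA (1.02, SE 0.24, adjusted p = 0.0486 from edgeR), and Rgs5, a pericyte gene, was at 73.4, 70.4 and 74.4 CPM against 51.5, 47.4 and 51.4 CPM (0.54, SE 0.13, adjusted p = 0.0429 from edgeR). Either call was lost without any 1 of the 6 libraries. Pecam1, which defines endothelium, was at −0.12 (SE 0.19), and the 16 endothelial markers had a median of 0.03. Either list of myelin precursors, that of newly formed oligodendrocytes (10 genes) and that of oligodendrocyte precursors (10), gave 0 calls by edgeR or limma-voom and 1 by DESeq2, with 1 and 2 genes at an unadjusted p under 0.05. Of 14 astrocyte markers, 0 were called by edgeR or limma-voom, 3 were by DESeq2, and 6 had an unadjusted p under 0.05, beside 2927 of all 18994 genes. Among the 6 was the water channel Aqp4 (0.51, SE 0.13, adjusted p = 0.0509 from edgeR). Markers of cortical excitatory neurons (9) and GABAergic interneurons (14) gave 0 calls by edgeR, DESeq2 or limma-voom and 0 genes with an unadjusted p under 0.05.

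The remaining lists gave few or no calls. EdgeR called 0 of 33 potassium channel genes, 21 cholesterol genes, 13 complement genes and 7 metallothionein and zinc transporter genes, of which 6, 0, 4 and 1 had an unadjusted p under 0.05, and among these lists DESeq2 and limma-voom each called 1 gene, of complement. It also called 0 of the markers of superficial (8) and deep layer neurons (13), striatum (12), fibroblasts (11), ependyma (10), neuroblasts and dividing cells (12), thalamus and habenula (9), blood (3 haemoglobin genes) and blood immune cells (2 tested), with 3, 1, 2, 1, 0, 1, 0, 0 and 1 genes at an unadjusted p under 0.05. In these, DESeq2 called 1 superficial layer gene and limma-voom called 0. Some of these lists still leaned 1 way, with a median of 0.40 for fibroblast markers (10 of 11 above 0), 1.28 for the 3 haemoglobin genes, −0.28 for striatal markers and −0.14 for deep layer markers (11 of 13 below 0). The fibroblast sum was 239 to 506 CPM after formalin and 269 to 409 CPM after CFA, and the haemoglobin sum was 2.12 to 16.1 CPM and 1.77 to 3.97 CPM, so the groups overlapped in both. P2ry12 was the only edgeR call of 15 purinergic genes, Marcksl1 of 17 actin regulators, Itgam of 30 matrix and integrin genes, Rgs5 of 10 pericyte markers and Neat1 of 11 long noncoding RNAs. Of 17 DNA damage and growth arrest genes, 1 was called higher and 1, Cdkn1a, lower.

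Genes of amino acid and one-carbon metabolism gave 3 calls among 22, 1 higher and 2 lower, against 0.374% and 0.558% of all genes. Cbs, which makes cystathionine from homocysteine, was at 23.8, 26.4 and 28.3 CPM after formalin and at 49.9, 43.3 and 55.8 CPM after CFA (−0.93, SE 0.12, adjusted p = 0.00117 from edgeR). Gpt, an alanine transaminase, fell too, with a log2 fold change of −0.78 (adjusted p = 0.00386 from edgeR) and its mitochondrial paralog Gpt2 was at −0.47, under the fold minimum. Calls of Cbs and Gpt held without any library, and Mthfd1l, a folate enzyme of mitochondria, was higher (0.71, adjusted p = 0.0285 from edgeR) but was called without formalin replicate 2 only. The nuclear noncoding RNA Neat1 was at 44.3, 33.9 and 29.3 CPM after formalin and at 64.0, 53.6 and 78.4 CPM after CFA (−0.86, SE 0.19, adjusted p = 0.0304 from edgeR). Neat1 was not called in fits with the 9 mPFC or with the 6 compared libraries alone, and Malat1, its neighbor in the genome, was at −0.19 (SE 0.22).

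Some called genes outside the lists are given for their roles and were chosen after their values were seen. Mfsd2a, which carries docosahexaenoic acid across the blood-brain barrier, was at 12.2, 13.7 and 14.7 CPM after formalin and at 31.4, 28.8 and 26.6 CPM after CFA (−1.10, SE 0.17, adjusted p = 0.00321 from edgeR). Smox, a polyamine oxidase, fell by 0.85 on the log2 scale, Htra1, a secreted protease, by 0.74, and Adgrg1, an adhesion receptor, by 0.75, and the calls of these 4 genes held without any library. Chrd, the BMP antagonist chordin, was at 43.6, 48.2 and 38.5 CPM after formalin and at 79.8, 88.2 and 89.7 CPM after CFA (−0.98, SE 0.17, adjusted p = 0.00831 from edgeR), lost without formalin replicate 3 alone (adjusted p = 0.0635). Among genes higher after formalin, the growth factor Ptn (0.50) and the adhesion proteins Ncam2 (0.57), Lrrc4c (0.53) and Il1rapl1 (0.67) work at axons and synapses. Their calls were lost without 4 (Ncam2), 2 (Lrrc4c) and 3 (Il1rapl1) of the 6 libraries, and that of Ncam2 also in the fit of the 6 compared libraries alone. Ptn was at 306, 306 and 309 CPM after formalin and at 224, 210.1 and 216 CPM after CFA, but its log2 fold change lay so near the minimum of 0.5 that it lost the call when formalin replicate 3 or CFA replicate 2 or 3 was left out.

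Values against the control libraries are given side by side, since those comparisons share libraries with this one. In the same model 51 genes were called between formalin and control (0.269% of genes tested) and 120 between CFA and control (0.632%). Fkbp5 was at 0.14 for formalin minus control and at 1.30 for CFA minus control. The pairs of values were −0.13 and 3.13 for Plin4, 0.07 and 1.28 for Sult1a1, −0.60 and 1.01 for Hif3a, and 0.06 and 0.96 for Tsc22d3. They were 0.13 and −0.88 for Dbp, −0.06 and 0.72 for Per2, 0.22 and −0.73 for Tfrc, and 0.16 and −0.93 for Marcksl1. For mt-Nd1 (0.60 and −0.03) and Trib1 (−0.80 and −0.19) the formalin value was the larger of the pair, and for Cav2 (0.30 and −0.37), P2ry12 (0.38 and −0.30) and Cacna1h (−0.34 and 0.31) the values had opposite signs and similar size. Of these 3 genes none was called against control in either model.

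In the BNST the same contrast called 743 genes higher (3.91%) and 562 lower (2.96%) after formalin. Of the 71 genes higher in the mPFC, 18 were called higher in the BNST, which is 25.4% of the mPFC genes and 2.42% of those of the BNST, and 0 were called lower. Of the 106 lower, 26 were called lower in the BNST (24.5% and 4.63%) and 2 were called higher, Cacna1h and Dot1l, the second of which was named after its values were seen. The median BNST log2 fold change was 0.37 for the higher and −0.23 for the lower genes. Plin4 (−2.97), Hif3a (−1.75), Sult1a1 (−1.39) and Fkbp5 (−0.67) were lower after formalin in the BNST too, and Dbp (0.78), Cirbp (0.72) and P2ry12 (0.53) were higher. BNST and mPFC samples came from the same brains, so these values do not come from other animals.

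The difference between the regions was tested as an interaction, which called 792 genes (4.17%), 62 of them among those called in the mPFC. The mPFC difference is 1 term of this test, so genes chosen for it pass more readily. The 62 is therefore a description and cannot be set against the 4.17%. This test treated the libraries of both regions as independent although they came from the same brains, and whether equal numbers mark 1 brain is not given in the sources used here. With the replicate number within each treatment as a block over the regions, an alternative chosen after seeing the data, it called 712. Per2 was at −0.79 in the mPFC and at 0.38 in the BNST (interaction adjusted p = 0.000494 from edgeR), and Cacna1h at −0.65 and 0.66 (interaction adjusted p = 0.000657 from edgeR). Cav2 (0.67 and −0.19) and Htr1b (−0.65 and 0.46) also had values of opposite sign, with interaction adjusted p of 0.00356 and 0.00594 from edgeR. Of these genes only Cacna1h was called in the BNST. Per2 and Htr1b lay under the fold minimum there (adjusted p = 0.0087 and 0.0345 from edgeR). The BNST value of Cav2 was not distinct from 0 (adjusted p = 0.211 from edgeR). BNST CFA replicate 2 differed most from its group, with a chi-square statistic divided by its degrees of freedom of 55.5 and 73.4 against the other two libraries, while the pairs within the compared mPFC groups gave 3.53 to 5.11. Without that library the interaction called 1502 genes and the mPFC comparison 266.

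**Figure D5:**
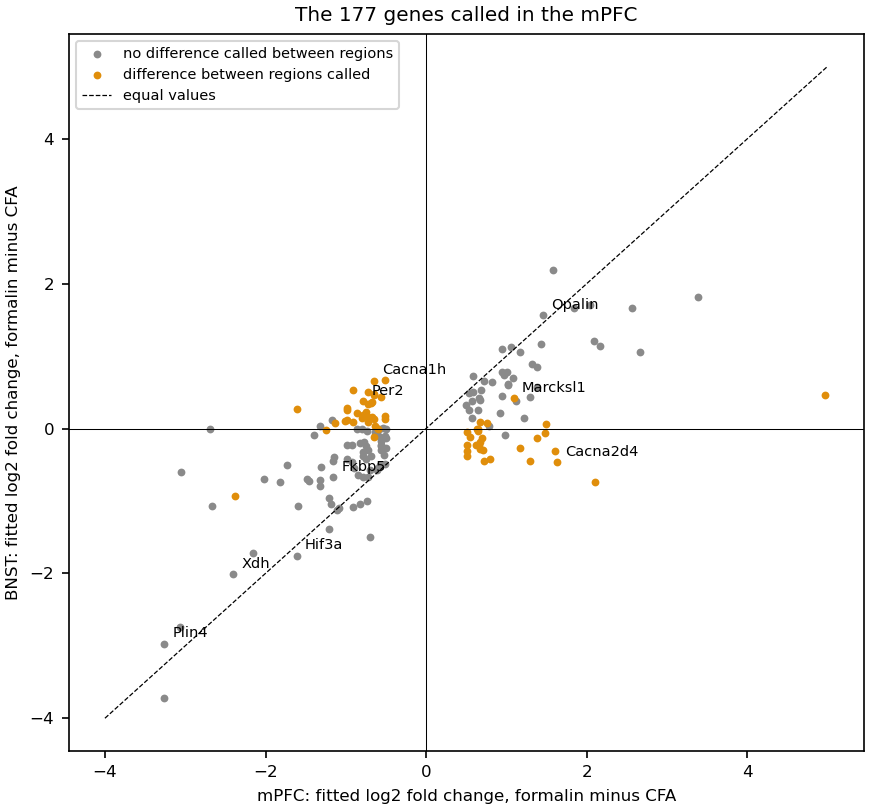
Each point is 1 gene called in the mPFC, with its fitted log2 fold change of formalin minus CFA in the mPFC on the horizontal and in the BNST on the vertical axis, and a dashed line of equal values. Plin4, Xdh, Hif3a and Opalin lie near the line, and the 62 genes with a called difference between the regions, such as Per2 and Cacna1h, lie away from it.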

How the data were processed

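Libraries of messenger RNA from 2 brain regions were made with a VAHTS mRNA-seq V3 kit from 3 brains per group. The authors trimmed reads with Trimmomatic 0.39, aligned them to mm10 with HISAT2 2.2.1 and summarised them by gene in featureCounts 2.0.1, and the deposited table holds these raw counts for 55401 gene identifiers. The annotation release and the strand setting are not given in the sources used here. Symbols were joined from GENCODE, and 260 identifiers had none.

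From these counts, genes passing the edgeR 4.0.16 expression filter (minimum count 10, minimum total 15) were scaled by TMM and fitted with a robust quasi-likelihood model of 6 groups and 18 libraries in R 4.3.3, with Benjamini-Hochberg adjustment over all genes tested. The BNST was fitted together with the mPFC so that all groups shared the estimate of spread. Named genes were the 12 called genes with the largest change in each direction whose higher group averaged 5 CPM or more without overlap between groups, all called list members, up to 4 other members per list that were abundant or define it, and genes named by the study. Some genes that this rule names are not reported here. Members and the 52 lists were chosen with earlier results of these data known. Nothing says how the 3 samples of a group were processed apart from their brains, so p-values measure spread between samples only. That spread was estimated over all 18 libraries, those of the BNST included, and not over the compared samples alone. By the chi-square measure given above, BNST pairs within a group lay at 7.49 to 73.4 and the compared mPFC pairs at 3.53 to 5.11. EdgeR called 177 genes with this shared spread and 552 in the 9 mPFC libraries alone. No replicates of the compared groups differed by less than counting noise. On simulated data for the mPFC comparison, with 18994 genes, edgeR recovered 43.9% of simulated log2 changes of size 0.75, 70.1% of size 1 and 97% of size 2, and called 4 unchanged genes. On the same data DESeq2 called 20 unchanged genes and limma-voom 2. The changed genes all had a mean above 1 CPM, so recovery of rarer genes was not tested. Apart from the changes, each simulated gene had 1 mean level in all groups and 1 spread in both regions. The real regions differed in spread, so these numbers describe the simulated data and not the error rates of the real comparison. Alternatives used DESeq2 1.42.0, limma-voom (limma 3.58.1), other scalings, filters and sets of libraries. Same-numbered samples of the compared groups did not deviate together (residual correlations −0.0469, 0.00819 and 0.00819), so replicate numbers were not treated as pairs. Promoter sequences were read from RefSeq (GRCm38.p6).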

Additional observations from a re-analysis of the deposited data

Results flagged for a closer look

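For the genes below, the difference of formalin minus CFA was itself different between the mPFC and the BNST by the interaction test of edgeR (Benjamini-Hochberg adjusted p under 0.05). Each value is the mPFC minus the BNST log2 fold change. Of the 20 genes, 16 were called in the mPFC, whose difference is 1 term of this test. Those 16 were thus more likely to pass it, and the list is a description. Among genes higher after formalin in the mPFC it was 1.43 for Gm12371, 0.671 for Marcksl1, 0.855 for Cav2, 2.09 for Cacna2d4, 0.637 for mt-Nd1, 0.879 for mt-Nd6, 1.01 for Mthfd1l, 0.946 for Il1rapl1 and 0.551 for Omg. Among those lower it was −1.23 for Col5a3, −1.31 for Cacna1h, −1.17 for Per2, −1.11 for Htr1b, −1.12 for Tap1, −1.07 for Neat1 and −1.24 for Chrd. Cacna1h was called in both regions, lower after formalin in the mPFC and higher in the BNST.

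Some genes that were not called in the mPFC also differed between the regions. The value was −1.51 for Arc, −1.18 for Egr1, −0.85 for Cacna1e and 0.699 for Kcnh7. Egr1 (0.94) and Cacna1e (0.77) were called higher after formalin in the BNST. With 3 samples per group, no test for a single outlying sample was applied to the level of a gene.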

How the results depend on the processing

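No result reversed under any alternative tried. Of 177 calls, DESeq2 gave 311 (129 higher, 182 lower), the 9 mPFC libraries alone 552 (248 and 304), the 6 compared libraries alone 597 (265 and 332) and no minimum fold 334 (138 and 196). Libraries with the sequencing tag L2 in their names, an alternative chosen after seeing the data, gave 275 (123 and 152). A test against the fold minimum itself (glmTreat) left 9 (2 and 7). Leaving out 1 of the 18 libraries gave 50 to 266 calls (17 to 99 higher, 30 to 167 lower), with the highest number without CFA BNST replicate 2, and it gave 425 to 1502 calls for the difference between regions. Without formalin BNST replicate 2 or mPFC replicate 3, the difference between regions fell to 434 and 425 genes. Limma-voom (162), other scalings (175 and 205), removal of mitochondrial genes (175) and other count filters (173 and 197) stayed within 1.5 times. The replicate block gave 140 calls (60 higher, 80 lower), 122 of them shared with the fit without it, and 690 for the difference between regions. The numbers do not pair the formalin and CFA mPFC samples. Why the counts moved was not tested, except that sets with fewer libraries use other estimates of spread. At 15684723 to 23408503 counts per compared library, genes under 1 CPM rested on few counts each, and their fitted folds are imprecise.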
